A study of Homo sapiens with 8 samples.

Results

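The 8 forkhead genes FOXF1, FOXF2, FOXC1, FOXC2, FOXD1, FOXP1, FOXP2 and FOXP4 were read out in mesodermal cells made from human pluripotent stem cells. They were taken by name from a table of 61209 gene rows, which holds 52 forkhead genes in all. No measured value served as a criterion, but the members were chosen with earlier results of these data known. All 8 passed the filter on low counts. RNA came from H1, an established human embryonic stem cell line, and every library carried the same Msx1-P2A-tdTomato reporter allele. The cells had been driven toward lateral plate mesoderm with Activin A, CHIR99021, BMP4 and FGF2, then with BMP4 and CHIR99021. They were dissociated on day 4 and pelleted at 25000 cells per well. Pellets received FGF8 and FGF10 at 500 ng/mL each (FGF8+10) or Mock treatment, and were sorted on day 8 as Msx1+Pdgfra+ cells (Pdgfra-positive) or Msx1+Pdgfralow cells (Pdgfra-low). The 4 groups held 2 libraries each, 8 in all. The labels give every library one protocol text that describes the FGF8+10 medium, so what the Mock medium held is not stated. They name the libraries biological replicates without saying whether these were separate differentiations, and do not say whether the reporter line was 1 clone. The p-values therefore measure only the spread between these libraries.

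Forkhead factors are transcription factors that share a winged-helix DNA-binding domain. In the vertebrate embryo FOXF1 and FOXF2 mark the splanchnic layer of the lateral plate and the mesenchyme next to the gut, where they act downstream of hedgehog signals. FOXC1 and FOXC2 act in paraxial mesoderm, blood vessels and skeleton. FOXD1 marks stromal progenitors, best known in the kidney, and is also expressed in limb mesenchyme. FOXP1, FOXP2 and FOXP4 are mostly repressors that bind DNA as dimers with one another, and FOXP1 and FOXP4 are known from lung, heart and limb. Whether fibroblast growth factors shift the balance among these factors is the question that the comparison of FGF8+10 with Mock addresses here.

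The libraries held 47698561 to 64390444 assigned counts, and replicates of a group correlated at Pearson's r of 0.996 to 0.998 across genes on the log2 scale. No library stood apart from its partner. MSX1 was at 48.5 to 52.8 CPM (counts scaled to library size) in the 4 FGF8+10 libraries and at 21.3 to 26.2 CPM in the 4 Mock libraries. PDGFRA was at 712.3 and 716.4 CPM in Pdgfra-positive and 279.0 and 292.1 CPM in Pdgfra-low libraries under FGF8+10, and at 452.7 and 455.4 CPM and 189.0 and 194.1 CPM in the same order of populations under Mock. Both genes used for sorting were thus higher under FGF8+10 within each gate, and the gates may hold different cells in each treatment. Of 10 limb mesenchyme markers none was at 0 in any group, and their summed level was 962 to 1754 CPM, with PDGFRA or HAND2 as the top gene. In bulk RNA, fewer cells of a type and less RNA per cell cannot be told apart.

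All 8 genes were counted in every library, and the levels of 7 differed between FGF8+10 and Mock cells. In both sorted populations FOXF1, FOXF2, FOXC2, FOXD1 and FOXP1 rose under FGF8+10, FOXP2 and FOXP4 fell, and FOXC1 did not pass the test. In Pdgfra-positive cells 5 of the 8 genes were called higher and 2 lower at an adjusted p under 0.05 in edgeR's quasi-likelihood test, beside 50.9% of the 22554 tested genes called (25.8% higher and 25.1% lower). In Pdgfra-low cells 5 were higher and 2 lower, beside 55.7% of tested genes called (27.9% higher and 27.7% lower). With libraries scaled by their totals alone, 8164 genes were called higher and 3991 lower in Pdgfra-positive cells and 8113 and 4672 in Pdgfra-low cells, the median gene moved to 0.16 and 0.15, and the 8 genes gave the same counts of calls. Calls of at least 2-fold were made for 17.1% of tested genes in Pdgfra-positive cells (7.29% higher and 9.83% lower) and for 21.3% in Pdgfra-low cells (9.45% higher and 11.8% lower). They included 4 of the 8 forkhead genes in Pdgfra-positive cells (FOXF2, FOXC2, FOXD1 and FOXP1, all higher) and 5 in Pdgfra-low cells (FOXC2, FOXD1 and FOXP1 higher, FOXP2 and FOXP4 lower). The median log2 fold change of the 8 genes was 0.67 in Pdgfra-positive and 0.49 in Pdgfra-low cells, against -0.01 and -0.02 over all tested genes. Libraries of FGF8+10 and Mock did not overlap for 8 of 8 genes in Pdgfra-positive cells, where 73.6% of tested genes did not overlap, and for 7 of 8 in Pdgfra-low cells, where 76% did not.

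**Figure D1:**
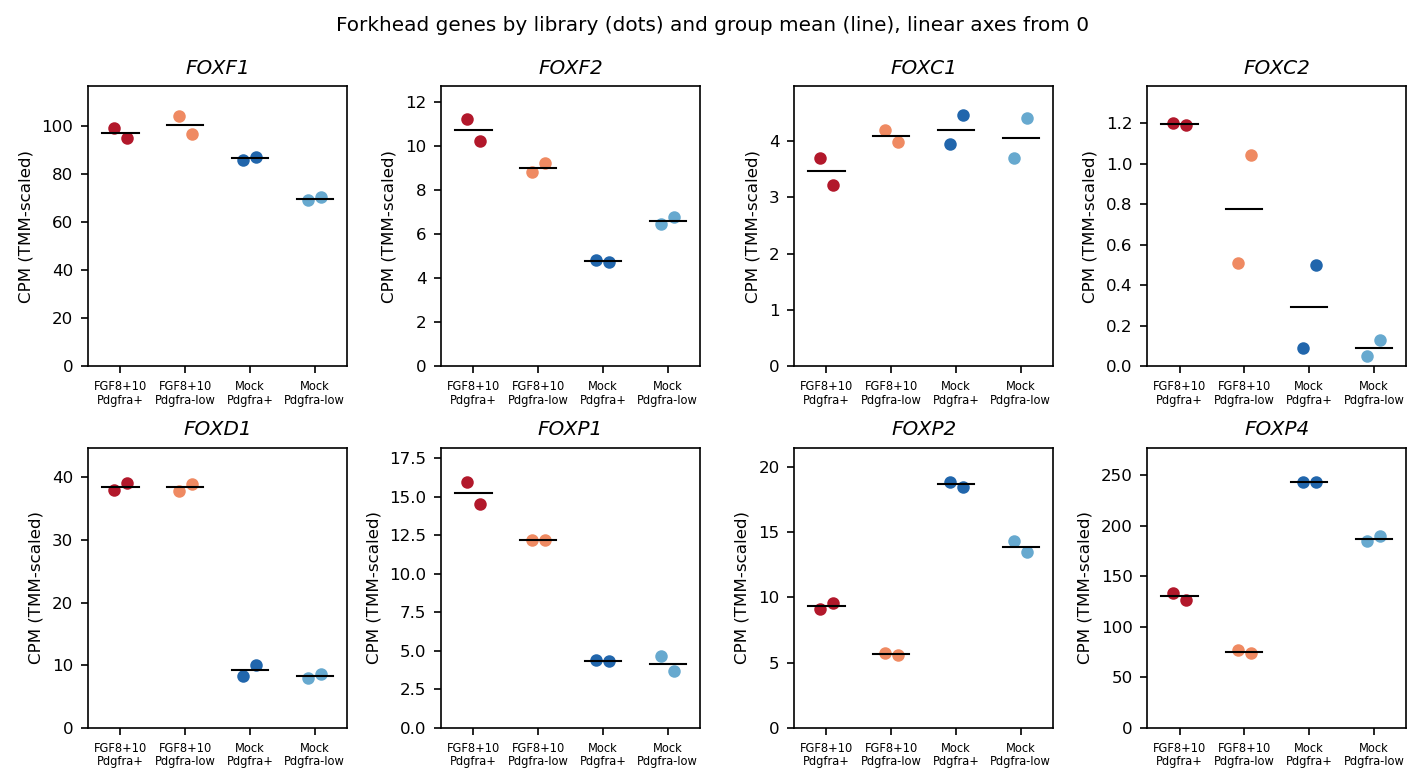
Level of each of the 8 forkhead genes in TMM-scaled CPM on linear axes from 0, one panel a gene. Dots are the 2 libraries of each group and lines are group means; FOXD1 sits near 38 CPM in the FGF8+10 libraries and near 8 to 10 CPM in the Mock libraries, while FOXP4 is highest in Mock.

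FOXD1 gave the largest change among the well-counted members. This factor marks the stromal lineage of the kidney and is also found in developing limb mesenchyme. It was at 37.9 and 39.1 CPM in Pdgfra-positive and 37.8 and 38.9 CPM in Pdgfra-low libraries under FGF8+10, and at 8.24 and 10.1 CPM and 7.90 and 8.67 CPM in the same order of populations under Mock. All 4 FGF8+10 libraries lay far above all 4 Mock libraries, and within each treatment the sorted populations overlapped. The FGF8+10 effect was 4.19-fold in Pdgfra-positive cells (log2 fold change 2.07 ± 0.08 SE, edgeR adjusted p = 7.74e-26). In Pdgfra-low cells it was 4.63-fold (2.21 ± 0.08, adjusted p = 2.48e-27). The difference between these effects was not called (-0.14 on the log2 scale, 95% interval -0.38 to 0.09, adjusted p = 0.428).

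FOXD1 lies on chromosome 5 (GRCh38, 73444827 to 73448777, minus strand) and has 2863 exon bases in 2 exons after merging. Of these, 424 bases are also annotated to the antisense gene FOXD1-AS1, which had 0 counts in every library. Counting was without strand and reads that touch more than 1 gene were dropped, so reads in that stretch are missing from FOXD1 in all groups. The 250 bases before its start are shown because FOXD1 carries the largest well-counted rise, and those before the start of FOXP4 because it carries the most abundant fall. Both come from RefSeq on GRCh38.p14 and are written from 5′ to 3′ on the strand of the gene, at chr5:73448778-73449027 for FOXD1 and chr6:41546131-41546380 for FOXP4.
FOXD1: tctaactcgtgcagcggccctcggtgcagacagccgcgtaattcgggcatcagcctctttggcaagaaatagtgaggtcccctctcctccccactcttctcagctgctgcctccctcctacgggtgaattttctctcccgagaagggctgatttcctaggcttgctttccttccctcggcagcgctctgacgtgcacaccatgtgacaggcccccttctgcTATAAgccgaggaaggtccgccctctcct
FOXP4: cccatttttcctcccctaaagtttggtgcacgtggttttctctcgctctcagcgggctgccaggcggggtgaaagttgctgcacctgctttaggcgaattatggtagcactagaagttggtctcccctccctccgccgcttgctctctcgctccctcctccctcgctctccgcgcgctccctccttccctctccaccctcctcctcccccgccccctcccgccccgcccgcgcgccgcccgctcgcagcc
Capitals mark a match to any of 4 motifs searched on both strands: TATAA (the TATA box core), TGTTTAC (a forkhead site), CCGGAAGT (an ETS site) and GACCACCCA (a GLI site). No match overlaps another in the windows printed. Among 35116 such windows of 250 bases, 18.9% held TATAA on either strand, 2.98% TGTTTAC, 3.42% CCGGAAGT and 0.199% GACCACCCA. FOXD1 held TATAA starting 29 bases before its start, and a TATAA on the gene's strand starting 25 to 35 bases before the start was found in 3.57% of windows. FOXP4 held none of the 4 motifs. RefSeq windows were present for 6 of the 8 members, with 6 starts for FOXP1 and 2 for FOXP2. The others are FOXF1 and FOXC2. A match of letters describes the sequence and is no evidence of binding.

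FOXP4 was the most abundant of the 3 FOXP members in every group and was higher in Mock. It was at 133.6 and 126.5 CPM in Pdgfra-positive and 76.9 and 73.7 CPM in Pdgfra-low libraries under FGF8+10, and at 243.6 and 243.1 CPM and 184.6 and 190.1 CPM in the same order of populations under Mock. No groups overlapped. The Mock Pdgfra-positive libraries were highest and the FGF8+10 Pdgfra-low libraries lowest. FGF8+10 was lower by 1.87-fold in Pdgfra-positive cells (log2 -0.90 ± 0.03, edgeR adjusted p = 3.64e-28) and by 2.49-fold in Pdgfra-low cells (-1.31 ± 0.03, adjusted p = 7.59e-34). The fall was larger in Pdgfra-low cells, with a difference of 0.41 ± 0.05 on the log2 scale (adjusted p = 4.41e-10).

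FOXP2, a repressor known from speech circuits and lung mesenchyme and epithelium, moved with FOXP4. It was at 9.09 and 9.55 CPM in Pdgfra-positive and 5.73 and 5.54 CPM in Pdgfra-low libraries under FGF8+10, and at 18.8 and 18.4 CPM and 14.3 and 13.5 CPM in the same order of populations under Mock. The groups stood in the order seen for FOXP4, again with no overlap. FGF8+10 was lower by 2.00-fold in Pdgfra-positive cells (log2 -0.999 ± 0.099, edgeR adjusted p = 4.99e-12) and by 2.46-fold in Pdgfra-low cells (-1.30 ± 0.11, adjusted p = 9.70e-15). The difference between the falls was 0.30 (95% interval 0.01 to 0.59) and was not called (adjusted p = 0.131). Among all pairs of members, FOXP2 and FOXP4 had the closest profiles over the 8 libraries, with a root-mean-square distance of 0.063 between their centred log2(CPM + 0.5) values, against 0.26 for the next closest pair, FOXF1 and FOXC1.

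Some heart muscle markers also fell under FGF8+10. Of 8 markers 6 were tested, and 3 fell in Pdgfra-positive and 4 in Pdgfra-low cells, with none called higher, beside 25.1% and 27.7% of all tested genes called lower. Their sum was 23.0 to 24.1 and 11.5 to 11.9 CPM in the FGF8+10 Pdgfra-positive and Pdgfra-low libraries and 148 to 153 and 137 to 144 CPM in the Mock libraries. TNNI1 was the most abundant. The defining gene TNNT2 was at 62.0 ± 5.2 and 47.2 ± 0.65 CPM (SD, n = 2) in Mock and at 0.738 ± 0.10 and 0.217 ± 0.066 CPM under FGF8+10, where MYH7 was at 0 in Pdgfra-positive and MYH6 at 0 in Pdgfra-low cells. Their part in the FOXP2 and FOXP4 results was not tested.

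FOXP1, which acts in heart, lung and limb motor innervation and pairs with the other FOXP proteins, went the other way. It was at 15.9 and 14.5 CPM in Pdgfra-positive and 12.2 and 12.2 CPM in Pdgfra-low libraries under FGF8+10, and at 4.41 and 4.34 CPM and 4.65 and 3.71 CPM in the same order of populations under Mock. All FGF8+10 libraries were above all Mock libraries, and the sorted populations overlapped only under Mock. The rise was 3.48-fold in Pdgfra-positive cells (log2 1.80 ± 0.12, edgeR adjusted p = 4.51e-17) and 2.92-fold in Pdgfra-low cells (1.55 ± 0.12, adjusted p = 4.01e-15). These effects differed by 0.25 (95% interval -0.10 to 0.61), which was not called (adjusted p = 0.335).

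The make-up of the FOXP class differed between treatments. The ratio of FOXP1 to FOXP4, each per exon length, was 0.0283 to 0.0294 and 0.0389 to 0.0409 in the FGF8+10 Pdgfra-positive and Pdgfra-low libraries. It was 0.00439 to 0.00446 and 0.00480 to 0.00620 in the Mock libraries. FOXP2 per exon length was 8.43 to 8.47 times FOXP1 in Mock Pdgfra-positive and 6.09 to 7.22 times in Mock Pdgfra-low cells. Under FGF8+10 it was 1.13 to 1.31 and 0.899 to 0.935 times FOXP1. The FOXP1 row has 32800 exon bases (chromosome 3, 70954693 to 71583978, minus strand) and the FOXP2 row 16537 (chromosome 7, 114086327 to 114693772, plus strand), because exons of all isoforms are joined. FOXP4 has 8078 (chromosome 6, 41546381 to 41602384, plus strand). The size of a ratio between genes therefore depends on these annotated lengths, which cancel in its change across groups. Isoform use in each group was not examined. FOXP4 stayed the most abundant of the FOXP members in every library.

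**Figure D2:**
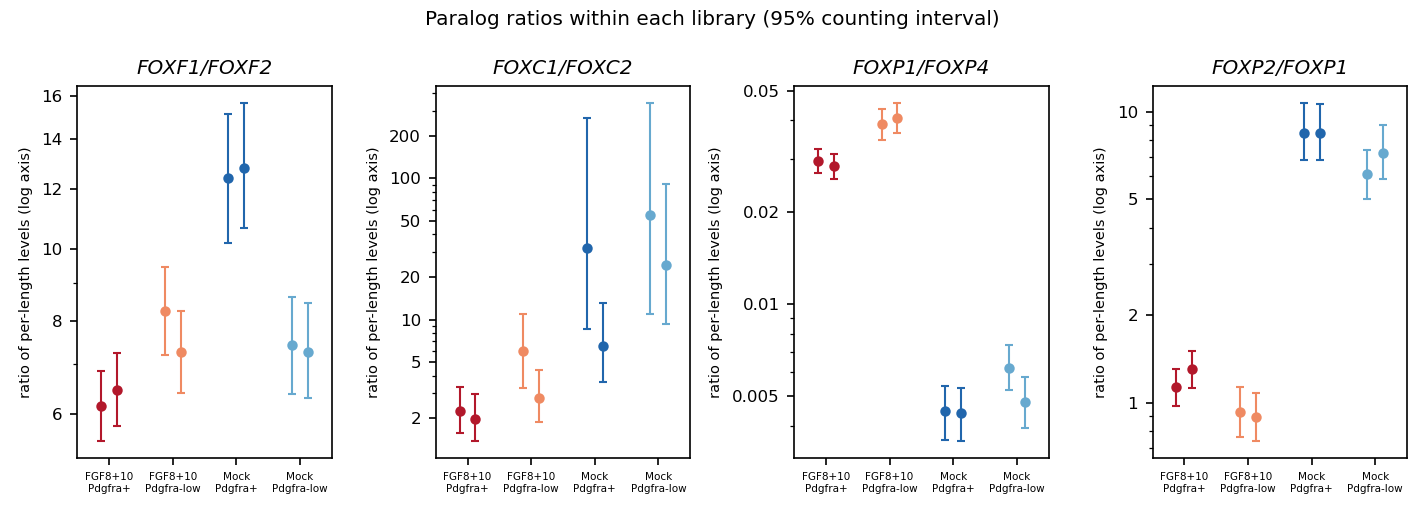
Ratio of the per-length levels of 2 related genes within each library (log axis), with 95% intervals that cover counting error only. FOXP1/FOXP4 is higher in the FGF8+10 libraries, FOXP2/FOXP1 is higher in the Mock libraries, and FOXF1/FOXF2 stands out in Mock Pdgfra-positive cells at 12.4 and 12.8.

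FOXF1, the main splanchnic mesoderm factor, was abundant in every group and rose slightly under FGF8+10. It was at 99.4 and 95.1 CPM in Pdgfra-positive and 104.5 and 96.7 CPM in Pdgfra-low libraries under FGF8+10, and at 85.9 and 87.4 CPM and 69.1 and 70.6 CPM in the same order of populations under Mock. The FGF8+10 populations overlapped, and the Mock Pdgfra-low libraries were lowest. The rise was 1.12-fold in Pdgfra-positive cells (log2 0.17 ± 0.04, edgeR adjusted p = 0.000383) and 1.44-fold in Pdgfra-low cells (0.52 ± 0.04, adjusted p = 8.44e-16). Scaled by library totals alone, the log2 fold changes were 0.34 and 0.69. The rise was larger in Pdgfra-low cells, by 0.36 ± 0.06 on the log2 scale (adjusted p = 1.41e-06 for the difference). FOXF1 is also known from endothelium, and endothelial markers were counted beside it. In Pdgfra-low cells 10 of 10 endothelial markers rose under FGF8+10, and their summed level was 2577 to 2583 CPM against 1363 to 1370 CPM in Mock. In Pdgfra-positive cells 6 of 10 rose and 1 fell, beside 25.8% of all tested genes called higher there and 27.9% in Pdgfra-low cells, with sums of 2130 to 2139 and 1329 to 1343 CPM. KDR, which early mesoderm also expresses, made up 75.4% to 88.2% of each sum. The defining genes PECAM1 and CDH5 were at 18.5 ± 1.3 and 19.8 ± 0.58 CPM (SD, n = 2) in FGF8+10 Pdgfra-low cells and at no more than 2.60 CPM on average in the other groups. No endothelial marker was at 0 in every library of a group. Their part in the FOXF1 result was not tested.

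FOXF2, the paralog that acts in gut, palate and brain pericytes, rose more in Pdgfra-positive cells. It was at 11.3 and 10.2 CPM in Pdgfra-positive and 8.81 and 9.26 CPM in Pdgfra-low libraries under FGF8+10, and at 4.82 and 4.75 CPM and 6.49 and 6.77 CPM in the same order of populations under Mock. No groups overlapped, and the Pdgfra-positive population was the higher under FGF8+10 and the lower under Mock. The rise was 2.25-fold in Pdgfra-positive cells (log2 1.17 ± 0.13, edgeR adjusted p = 5.46e-11) and 1.36-fold in Pdgfra-low cells (0.45 ± 0.12, adjusted p = 0.00142). The difference of 0.72 ± 0.17 was called (adjusted p = 0.00119) and ran opposite to that of FOXF1. The per-length ratio of FOXF1 to FOXF2 was 12.4 and 12.8 in the Mock Pdgfra-positive libraries and 6.15 to 8.26 in the other 6. Of 8 smooth muscle and pericyte markers, 3 rose and 2 fell in Pdgfra-positive cells and 5 rose and 2 fell in Pdgfra-low cells. Over all tested genes 25.8% were called higher and 25.1% lower in Pdgfra-positive cells, and 27.9% and 27.7% in Pdgfra-low cells. Summed, the markers were highest in another group than FOXF2. Their sum was 609 to 610 CPM in FGF8+10 Pdgfra-positive, 757 to 760 CPM in FGF8+10 Pdgfra-low, 410 to 411 CPM in Mock Pdgfra-positive and 481 to 485 CPM in Mock Pdgfra-low libraries, none of them at 0, and their part in the FOXF2 result was not tested.

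FOXC1 and FOXC2, which act together in somites, vessels and bone, were the class with the lowest summed level per exon length. The 2 genes behaved differently. FOXC1 was at 3.70 and 3.22 CPM in Pdgfra-positive and 4.19 and 3.99 CPM in Pdgfra-low libraries under FGF8+10, and at 3.94 and 4.46 CPM and 3.70 and 4.42 CPM in the same order of populations under Mock. The groups overlapped, except that both FGF8+10 Pdgfra-positive libraries lay below both Mock Pdgfra-positive and both FGF8+10 Pdgfra-low libraries. Its FGF8+10 effect was -0.28 in Pdgfra-positive cells (95% interval -0.63 to 0.07, edgeR adjusted p = 0.187) and 0.01 in Pdgfra-low cells (95% interval -0.34 to 0.36, adjusted p = 0.964).

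FOXC2 was close to the lower limit of these libraries. It was at 1.20 and 1.19 CPM in Pdgfra-positive (81 counts in each) and 0.509 and 1.04 CPM in Pdgfra-low libraries (27 and 61 counts) under FGF8+10, and at 0.0896 and 0.498 CPM (4 and 24 counts) and 0.0493 and 0.132 CPM in the same order of populations under Mock (3 and 8 counts). All FGF8+10 libraries were above all Mock libraries, but partners within 3 of the groups differed widely. Each pair gave up to 2 counts, so the limit that a count of 0 allows was taken as 6 counts, or 0.0883 to 0.134 CPM. The rise was 3.99-fold in Pdgfra-positive cells (log2 2.00 ± 0.51, edgeR adjusted p = 0.000835) and 8.41-fold in Pdgfra-low cells (3.07 ± 0.60, adjusted p = 1.99e-05). The first of these calls rested on 1 library: without Mock Pdgfra-positive replicate 1 the log2 fold change was 1.26 (adjusted p = 0.0511), and without replicate 2 it was 3.71. In Pdgfra-low cells, leaving out a library gave 2.46 to 3.92. The per-length ratio of FOXC1 to FOXC2 was 1.97 to 2.25 in FGF8+10 Pdgfra-positive, 2.79 to 5.99 in FGF8+10 Pdgfra-low, 6.52 to 32.0 in Mock Pdgfra-positive and 24.3 to 54.6 in Mock Pdgfra-low libraries. The 95% counting interval of the highest ratio reached up to 341.

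**Figure D3:**
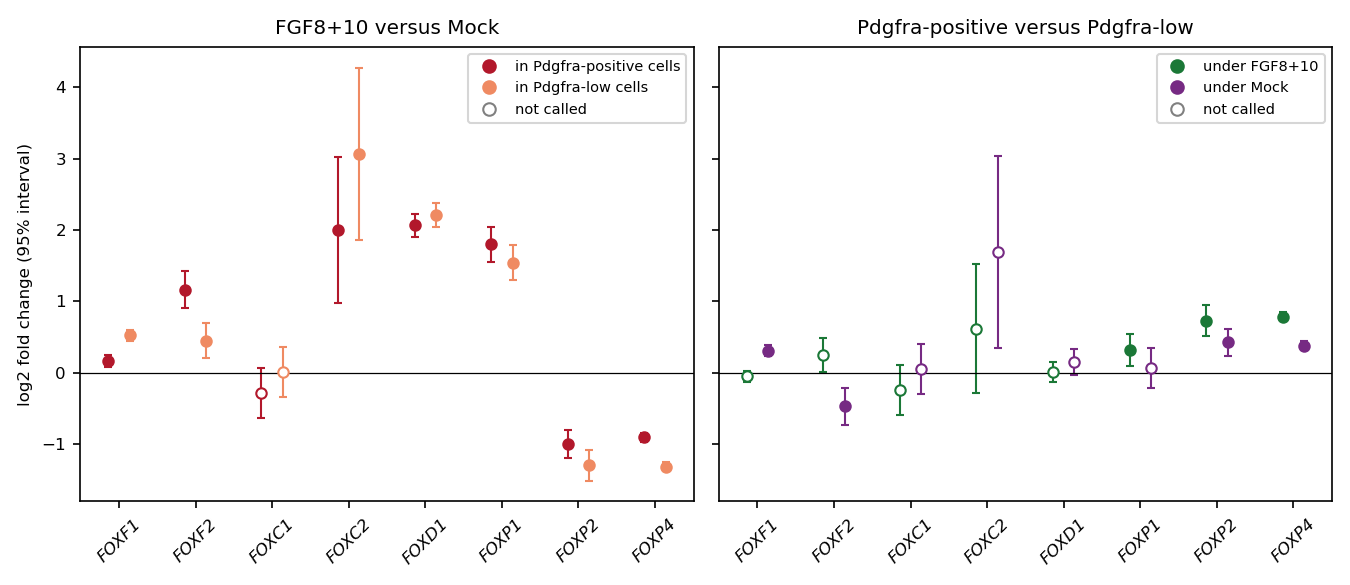
Log2 fold change of each forkhead gene with its 95% interval from edgeR, for FGF8+10 against Mock (left) and for Pdgfra-positive against Pdgfra-low cells (right). Filled circles passed an adjusted p of 0.05 and open circles did not. In Pdgfra-positive and Pdgfra-low cells, FOXC2 lies at 2.00 and 3.07, FOXD1 at 2.07 and 2.21 and FOXP1 at 1.80 and 1.55. FOXP2 and FOXP4 lie between -0.90 and -1.31. Between populations only FOXC2 under Mock, not called, lies beyond 1.

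FOXP2 and FOXP4 were higher in Pdgfra-positive than in Pdgfra-low cells under both treatments, each by less than 2-fold. Under FGF8+10, FOXP1, FOXP2 and FOXP4 were called higher in Pdgfra-positive cells, no member was called lower and 5 were not called, beside 41.4% of tested genes called (19.6% higher and 21.7% lower). The 3 that passed were the 3 FOXP genes among the members. FOXP4 was higher by 1.73-fold (log2 0.79 ± 0.03, edgeR adjusted p = 2.09e-24), FOXP2 by 1.65-fold (0.73 ± 0.11, adjusted p = 2.17e-07) and FOXP1 by 1.25-fold (0.32 ± 0.11, adjusted p = 0.0156). The FOXP1 call did not hold when any of 3 libraries was left out, with adjusted p of 0.0694 to 0.187, or in DESeq2, with an adjusted p of 0.0522. FOXD1 differed by 0.01 (95% interval -0.14 to 0.15) and FOXF1 by -0.05 (-0.13 to 0.03). FOXF2 differed by 0.25 (0.02 to 0.48, adjusted p = 0.0830), FOXC1 by -0.24 (-0.59 to 0.11) and FOXC2 by 0.62 (-0.29 to 1.52). Libraries did not overlap for 6 of the 8 genes, beside 67.2% of tested genes.

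Under Mock, FOXF1, FOXP2 and FOXP4 were called higher and FOXF2 lower in Pdgfra-positive cells, and 4 members were not called, beside 25.8% of tested genes called (12.4% higher and 13.4% lower). FOXF1 was higher by 1.24-fold (log2 0.31 ± 0.04, edgeR adjusted p = 2.94e-08), FOXP4 by 1.30-fold (0.38 ± 0.03, adjusted p = 6.09e-14) and FOXP2 by 1.34-fold (0.42 ± 0.10, adjusted p = 0.000575). FOXF2 was lower by 1.39-fold (-0.47 ± 0.13, adjusted p = 0.00476). FOXC2 differed by 1.69 (0.34 to 3.04, adjusted p = 0.0571), FOXD1 by 0.15 (-0.04 to 0.34), FOXP1 by 0.07 (-0.21 to 0.34) and FOXC1 by 0.05 (-0.30 to 0.40). Without Mock Pdgfra-positive replicate 1, FOXC2 and FOXD1 were called as well, for 5 members higher. Libraries did not overlap for 4 of the 8 genes, beside 58.7% of tested genes. No member differed by 2-fold with a call between the populations, against 6.38% of tested genes under FGF8+10 and 3.88% under Mock.

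The sorted populations also differed in markers of other cells. The epithelial list, mainly KRT8 and KRT18, summed to 960 to 978 CPM in FGF8+10 Pdgfra-low and 604 to 606 CPM in Mock Pdgfra-low libraries, against 246 to 247 and 263 to 264 CPM in the Pdgfra-positive libraries. Of 8 epithelial markers 6 were tested. In Pdgfra-positive cells 4 were lower under FGF8+10 and 3 under Mock, with none higher, beside 21.7% and 13.4% of all tested genes called lower. EPCAM, which defines epithelium, stayed at 0.630 to 0.963 CPM on average in all groups. Of the 10 limb mesenchyme markers, 7 were higher and none lower in Pdgfra-positive cells under FGF8+10, beside 19.6% and 21.7% of all tested genes. Under Mock 5 were higher and 2 lower, beside 12.4% and 13.4%. This list includes PDGFRA, on which the populations were sorted. In each FGF8+10 group 1 epithelial marker was at 0. The part of these lists in the FOXP and FOXF differences was not tested.

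The test of whether the FGF8+10 effect differed between populations called FOXF2 and FOXP4 higher in Pdgfra-positive cells and FOXF1 lower, while 5 members were not called. Over all tested genes 26% were called (12% higher and 14% lower). For FOXC2 the interval was wide, at -1.08 with a 95% interval of -2.70 to 0.55. For FOXC1 it was -0.29 (-0.79 to 0.20).

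Levels of different members can be compared only per exon length, as CPM per kilobase, and they changed order between treatments. In both FGF8+10 groups FOXF1 was first, at 27.6 ± 0.86 and 28.6 ± 1.6 CPM per kilobase (SD, n = 2) in Pdgfra-positive and Pdgfra-low cells. In both Mock groups FOXP4 was first, at 30.1 ± 0.046 and 23.2 ± 0.48 CPM per kilobase, and FOXF1 came next, at 24.6 ± 0.29 and 19.9 ± 0.30. In FGF8+10 Pdgfra-positive cells FOXP4 came next at 16.1 ± 0.63, before FOXD1 at 13.4 ± 0.30. In FGF8+10 Pdgfra-low cells FOXD1 came next at 13.4 ± 0.29, before FOXP4 at 9.33 ± 0.28. FOXD1 was at 3.201 ± 0.455 and 2.89 ± 0.19 in Mock, and in Mock Pdgfra-low cells its libraries overlapped those of FOXF2, at 2.70 ± 0.08. FOXF2 was at rank 4 in every group, at 1.95 to 4.38 CPM per kilobase, and FOXC1, FOXC2, FOXP1 and FOXP2 were all at or below 1.13 CPM per kilobase. Among these low members, FOXP2 and FOXC2 overlapped in FGF8+10 Pdgfra-low cells, and FOXP2 with FOXC1 and FOXP1 with FOXC2 in Mock Pdgfra-positive cells. With the longest coding transcript as the length, an alternative added after the values were seen, FOXP1 was at 1.69 and 1.36 CPM per kilobase under FGF8+10 and at 0.486 and 0.464 in Mock, and FOXP2 at 1.45, 0.875, 2.89 and 2.15 in the same order of groups. FOXP1 then moved from ranks 7 and 6 to rank 5 in both FGF8+10 groups, and FOXP2 moved above FOXF2 to rank 4 in Mock Pdgfra-positive cells.

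Summed by class, the FOXP genes made up 47.5% to 50.9% of the 8 members' per-length level in the Mock libraries and 17.6% to 27.1% in the FGF8+10 libraries. FOXD1 made up 4.67% to 5.88% in Mock and 20.4% to 24.3% under FGF8+10. The FOXF pair made up 42.5% to 44.7% in Mock and 49.7% to 57.4% under FGF8+10, and the FOXC pair 1.65% to 2.43% in all libraries. The ranges of the FOXP, FOXD1 and FOXF shares did not overlap between treatments. The 8 genes together were 36.9% to 40.0% of the per-length level of all 52 forkhead genes in every library, so their joint share stayed nearly level while its make-up differed.

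**Figure D4:**
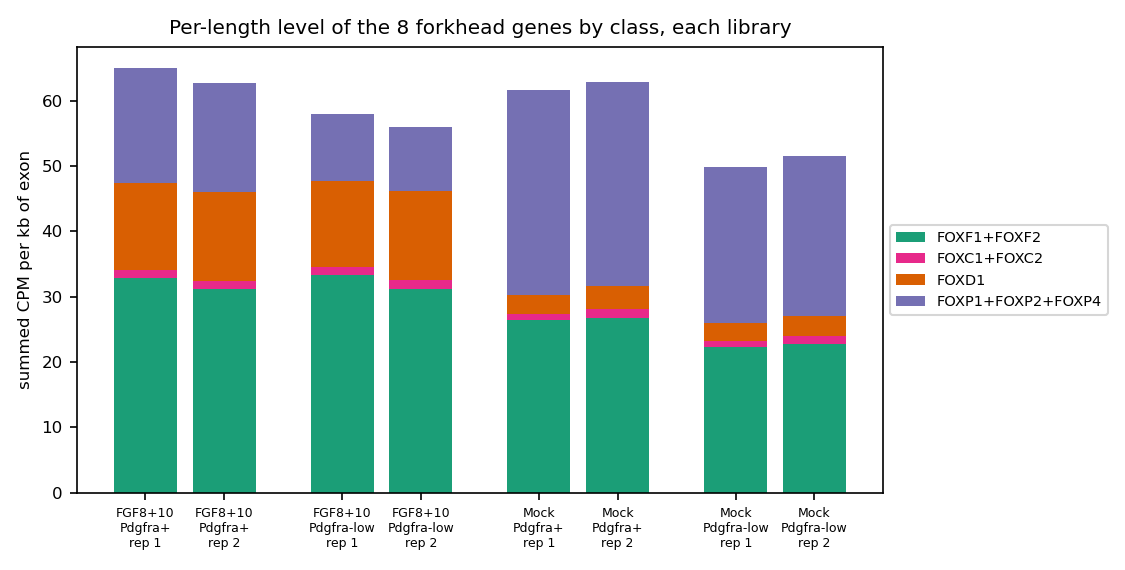
Per-length level (CPM per kilobase of exon) of the 8 forkhead genes in each library, stacked by class on a linear axis from 0. The FOXP block is larger in the Mock libraries, at 47.5% to 50.9% of the bar, and the FOXD1 block is larger in the FGF8+10 libraries, at 20.4% to 24.3%.

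The members FOXF1, FOXC2, FOXF2 and FOXC1 sit in 2 gene clusters with other forkhead genes, and neighbours differed in their changes. On chromosome 16 FOXF1 (86510527 to 86515422, plus strand) is followed by FOXC2 (86566829 to 86569728, plus strand) 56.3 kb away and by FOXL1 (86576368 to 86583478, plus strand) 65.8 kb away, from start to start. The lncRNA gene FENDRR (86474529 to 86509099, minus strand) starts 1.43 kb from FOXF1 and runs the other way. FENDRR RNA is known to bind chromatin regulators in lateral mesoderm. On chromosome 6 FOXF2 (1389576 to 1395603) lies 77.5 kb after FOXQ1 (1312098 to 1314758) and 220.3 kb before FOXC1 (1609915 to 1613897), all on the plus strand. Exons of FOXF1, FENDRR, FOXL1, FOXQ1, FOXC1 and FOXP4 share no base with another annotated gene, and FOXC2 shares 231 bases with FOXC2-AS1, which had 2 counts in all. FOXF2 shares 98 bases with the microRNA gene MIR6720.

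FENDRR rose with FOXF1 in Pdgfra-low cells, and in Pdgfra-positive cells its direction depended on the scaling. It was at 67.8 and 66.5 CPM in Pdgfra-positive and 66.8 and 70.7 CPM in Pdgfra-low libraries under FGF8+10, and at 74.8 and 75.2 CPM and 45.03 and 48.6 CPM in the same order of populations under Mock. The Mock populations lay apart on either side of the FGF8+10 libraries, which overlapped. FENDRR rose by 0.55 ± 0.05 on the log2 scale in Pdgfra-low cells (edgeR adjusted p = 1.56e-14), beside 0.52 for FOXF1. In Pdgfra-positive cells it was lower by a log2 fold change of -0.16 ± 0.04 (adjusted p = 0.00234), a direction that was lost when libraries were scaled by their totals alone (0.01), and the call was lost without FGF8+10 Pdgfra-positive replicate 2 (adjusted p = 0.0544). The effects differed by -0.71 ± 0.06 (adjusted p = 1.48e-12), in the direction seen for FOXF1. The per-length ratio of FENDRR to FOXF1 was 0.441 and 0.446 in the Mock Pdgfra-positive libraries and 0.327 to 0.374 in the other 6. The 250 bases before the RefSeq start of FENDRR (GRCh38.p14, chr16:86508861-86509110, minus strand) are shown because FENDRR is the abundant neighbour of FOXF1.
FENDRR: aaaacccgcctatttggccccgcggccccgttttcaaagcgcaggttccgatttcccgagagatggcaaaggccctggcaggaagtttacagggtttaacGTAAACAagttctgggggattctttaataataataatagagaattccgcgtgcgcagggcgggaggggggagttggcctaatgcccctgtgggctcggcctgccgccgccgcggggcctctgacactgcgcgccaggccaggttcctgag
Capitals mark GTAAACA, the reverse strand of the forkhead site TGTTTAC, which starts 150 bases before the RefSeq start, and the other 3 motifs had no match. In the annotation used for counting, FENDRR starts at 86509099, so nearly all of this window lies inside that gene and not between FENDRR and FOXF1.

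FOXL1 rose in both populations and FOXQ1 in Pdgfra-positive cells. FOXL1, a factor of gut and other mesenchyme, was at 2.00 and 2.33 CPM in Pdgfra-positive and 1.075 and 1.501 CPM in Pdgfra-low libraries under FGF8+10, and at 0.224 and 0.394 CPM and 0.230 and 0.116 CPM in the same order of populations under Mock. All FGF8+10 libraries lay above all Mock libraries. FOXL1 rose by 2.79 ± 0.38 and 2.88 ± 0.42 on the log2 scale in Pdgfra-positive and Pdgfra-low cells (edgeR adjusted p = 2.85e-08 and 6.32e-08). The neighbour FOXC2 rose by 2.00 and 3.07. Mock libraries held 10 and 19 FOXL1 counts in Pdgfra-positive and 14 and 7 in Pdgfra-low cells, so the size of its folds is uncertain. FOXQ1, known from epithelia and gastric mucus cells, was at 1.82 and 2.96 CPM in Pdgfra-positive and 0.943 and 0.614 CPM in Pdgfra-low libraries under FGF8+10, and at 0.314 and 0.602 CPM and 0.378 and 0.562 CPM in the same order of populations under Mock. It was clearly highest in FGF8+10 Pdgfra-positive cells. FOXQ1 rose by 2.37 ± 0.37 in Pdgfra-positive cells (adjusted p = 4.28e-07) and differed by 0.72 ± 0.38 in Pdgfra-low cells (adjusted p = 0.1105, or 0.0477 when libraries were scaled by their totals alone), and the difference of 1.65 ± 0.54 was called (adjusted p = 0.0179). FOXF2 next to it also rose more in Pdgfra-positive cells, while FOXC1 at the far end did not pass the test.

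**Figure D5:**
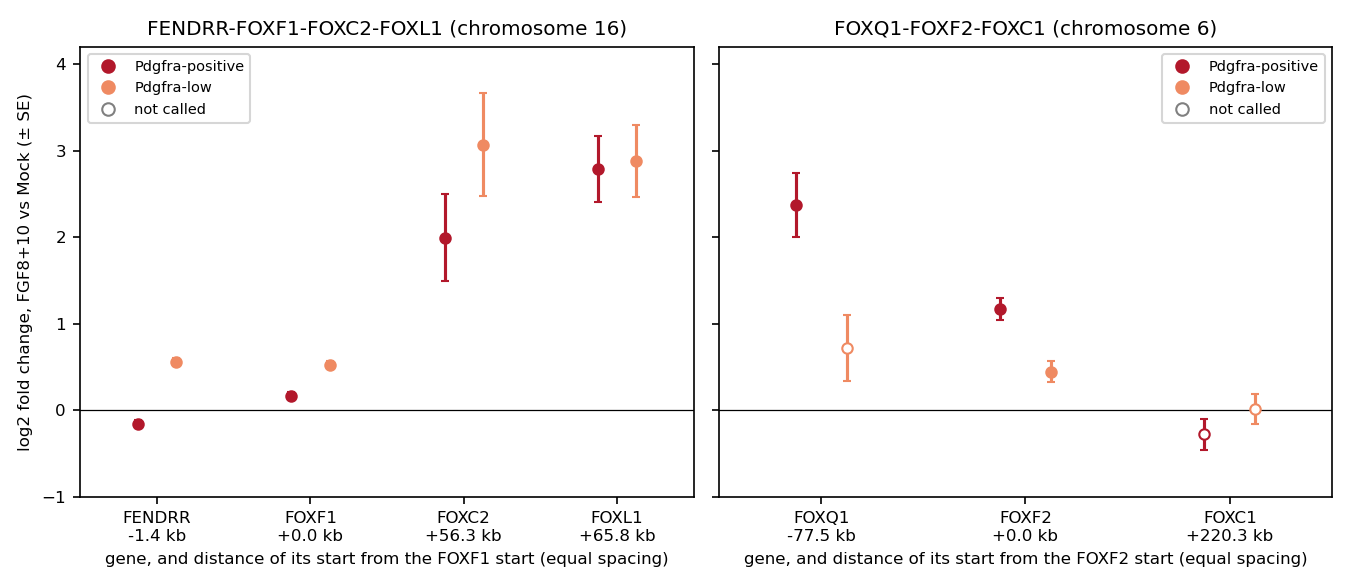
Log2 fold change of FGF8+10 against Mock (± SE) for genes of the 2 forkhead clusters, in genomic order with equal spacing and the distance between gene starts under each name. Filled circles passed an adjusted p of 0.05; FOXC2 and FOXL1 rose by about 2 to 3 while FOXF1 rose by 0.17 and 0.52 and FENDRR lay at -0.16 and 0.55, the former with a direction that library totals alone changed to 0.01.

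Of 13 lncRNA genes named after or known beside these forkhead genes, 11 were in the table and 3 were tested. FENDRR was the only abundant one. FOXP4-AS1, counted without strand, whose span reaches over the start of FOXP4 on the other strand and which shares no exon base with it, was at 0.341 and 0.324 CPM in Pdgfra-positive and 0.0566 and 0.239 CPM in Pdgfra-low libraries under FGF8+10, and at 0.807 and 0.747 CPM and 0.723 and 0.794 CPM in the same order of populations under Mock. It was lower under FGF8+10 in both populations, as FOXP4 was. The log2 fold changes were -1.22 ± 0.49 and -2.32 ± 0.55 (edgeR adjusted p = 0.0360 and 0.000321). The FGF8+10 Pdgfra-low libraries held 3 and 14 counts, the former below the limit of 6 counts. The size of the fall in Pdgfra-low cells is therefore uncertain, and leaving out a library gave -3.69 to -1.66. The call in Pdgfra-positive cells was lost in DESeq2 (adjusted p = 0.0662), with library totals alone (0.0708), with no filter on low counts (0.0609) and without any of the 4 libraries of the comparison (adjusted p of 0.0818 to 0.132). LINC01081 differed by 0.38 and 0.09 with adjusted p of 0.776 and 0.949, at 2 to 16 counts a library.

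Of the other 44 forkhead genes 24 were tested. In Pdgfra-positive cells 6 were higher and 9 lower under FGF8+10, with a median log2 fold change of -0.12, and in Pdgfra-low cells 5 were higher and 8 lower, with a median of -0.34. Besides FOXL1 and FOXQ1, the named rule took FOXM1 and FOXO6. FOXM1, which drives genes of mitosis, rose by 0.73 ± 0.05 and 1.30 ± 0.05 (edgeR adjusted p = 4.86e-17 and 4.08e-27), from 35.8 and 37.1 CPM in Mock to 59.2 and 91.6 CPM. FOXO6, a member of the insulin-regulated FOXO class, fell by 2.18 ± 0.32 and 2.98 ± 0.36 on the log2 scale (adjusted p = 1.57e-07 and 8.01e-10), from 2.12 and 2.05 CPM to 0.465 and 0.257 CPM.

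Hedgehog genes, which act upstream of FOXF1, FOXF2 and FOXL1 in the embryo, moved in both directions. Of 16 genes, 15 were tested. In Pdgfra-positive cells 5 were higher and 6 lower under FGF8+10 (median log2 fold change 0.06), and in Pdgfra-low cells 4 were higher and 9 lower (median -0.61). PTCH1, the receptor and a direct target, fell from 115 ± 8.0 to 41.1 ± 2.0 CPM (SD, n = 2) in Pdgfra-positive cells and from 159 ± 1.3 to 34.2 ± 1.1 CPM in Pdgfra-low cells. Its log2 fold changes were -1.49 ± 0.04 and -2.21 ± 0.04 (edgeR adjusted p = 6.21e-31 and 1.38e-37). The target GLI1 fell by 2.56 ± 0.25 and 2.21 ± 0.25 on the log2 scale. HHIP, which binds and limits the ligands, rose by 2.90 ± 0.21 and 4.87 ± 0.21. GAS1, a co-receptor, was at 18.4 ± 0.75 and 21.1 ± 0.099 CPM in Mock and FGF8+10 Pdgfra-positive cells (0.20 ± 0.07) and fell by 1.96 ± 0.07 in Pdgfra-low cells. The GAS1 call in Pdgfra-positive cells was lost without FGF8+10 replicate 1 or Mock replicate 2, with adjusted p of 0.0531 and 0.144. The ligand SHH was at 0.0448 to 0.265 CPM on average and was not called.

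Other splanchnic lateral plate factors were mixed, with 7 of 14 tested genes higher and 4 lower under FGF8+10 in Pdgfra-positive cells and 7 higher and 5 lower in Pdgfra-low cells. The largest changes were rises. HLX, a gut and liver mesenchyme factor, rose from 0.126 and 0.140 CPM to 5.12 and 10.9 CPM, with log2 fold changes of 5.29 ± 0.31 and 6.26 ± 0.27. Its Mock groups held 12 and 17 counts over both libraries, so the size of these folds is uncertain. ISL1, of heart and hindlimb progenitors, rose by 3.09 ± 0.13 and 3.26 ± 0.13. MEF2C, of heart progenitors and muscle, rose by 2.29 ± 0.08 and 2.80 ± 0.08, and TBX1, of pharyngeal mesoderm, by 1.51 ± 0.10 and 2.05 ± 0.10. Somatic lateral plate and limb factors were more often called lower, with 5 of 18 tested genes higher and 10 lower in Pdgfra-positive cells (median -0.52) and 3 higher and 12 lower in Pdgfra-low cells (median -0.59). LHX2 fell by 2.81 ± 0.35 and 4.36 ± 0.29 on the log2 scale, SHOX2 by 2.41 ± 0.07 and 3.98 ± 0.09, IRX3 by 1.73 ± 0.23 and 3.14 ± 0.22, and the hindlimb factor TBX4 by 1.41 ± 0.05 and 2.60 ± 0.05. Each of these 8 genes had an edgeR adjusted p under 0.05 in both populations. The list of 10 limb mesenchyme markers, which shares genes with the somatic list, was mixed under FGF8+10. In Pdgfra-positive cells 6 of its genes were higher and 3 lower (median 0.18), and in Pdgfra-low cells 3 were higher and 5 lower (median -0.09).

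Genes with known links to the 3 forkhead classes were counted as well. Of 14 tested genes linked to FOXF factors, 8 were higher and 5 lower under FGF8+10 in each population. SFRP1, a WNT antagonist, rose by 3.47 ± 0.04 and 4.00 ± 0.05, and TEK, the angiopoietin receptor, by 1.63 ± 0.02 and 1.70 ± 0.02. The adhesion gene VCAM1 fell by 2.26 ± 0.28 and 4.26 ± 0.40 on the log2 scale, the latter to 12 counts over both libraries. Of 11 tested genes linked to FOXC factors, 5 were higher and 1 lower in Pdgfra-positive cells, and 5 were higher and 3 lower in Pdgfra-low cells. The chemokine receptor CXCR4 rose by 4.60 ± 0.08 and 5.16 ± 0.09, its ligand CXCL12 by 2.24 ± 0.04 and 2.69 ± 0.05, and the Notch target HEY1 by 1.94 ± 0.06 and 2.34 ± 0.05. FOXC1 itself did not pass the test in either population.

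Of 12 tested stromal genes linked to FOXD1, 8 were higher and 3 lower in Pdgfra-positive cells, and 6 were higher and 5 lower in Pdgfra-low cells. ALDH1A2, which makes retinoic acid, rose by 3.35 ± 0.08 and 6.70 ± 0.12, the matrix gene TNC by 4.88 ± 0.04 and 6.09 ± 0.05, and TBX18 by 1.79 ± 0.16 and 1.49 ± 0.13. The matrix proteoglycan DCN fell by 4.09 ± 0.02 and 5.22 ± 0.02 on the log2 scale, from 3685 ± 51 and 3641 ± 52 CPM to 216 ± 0.58 and 97.7 ± 2.9 CPM. Of 6 kidney markers 3 were tested, and in both populations LHX1 and EYA1 rose and OSR1 fell. The sum of the list was 32.5 to 34.3 CPM in FGF8+10 Pdgfra-positive, 12.8 to 13.5 CPM in FGF8+10 Pdgfra-low, 73.3 to 75.9 CPM in Mock Pdgfra-positive and 65.8 to 67.4 CPM in Mock Pdgfra-low libraries. OSR1, which lateral plate also expresses, made up 82.0% to 99.4% of each sum. The kidney-defining genes PAX2, PAX8 and SIX2 were at no more than 0.132 CPM on average in any group, and PAX8 was at 0 in both FGF8+10 groups, where 6 counts allow up to 0.113 CPM in a library. Their part in the FOXD1 result was not tested.

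Of 13 tested partners and corepressors of FOXP proteins, 6 were higher and 2 lower under FGF8+10 in Pdgfra-positive cells, and 6 higher and 5 lower in Pdgfra-low cells. Their changes were mostly small. The corepressor CTBP2 rose by 0.66 ± 0.03 and 0.34 ± 0.03 on the log2 scale. NFATC2, a calcium-regulated factor that binds DNA with FOXP proteins in T cells, rose by 1.59 ± 0.12 in Pdgfra-positive cells and fell by 0.73 ± 0.10 in Pdgfra-low cells. SATB1 rose by 0.62 ± 0.04 in Pdgfra-positive cells and by 0.10 ± 0.04 in Pdgfra-low cells, and the latter call was lost without any of the 4 libraries of that comparison (adjusted p of 0.0667 to 0.106). The lists in these paragraphs hold genes chosen with earlier results of these data known, and their counts stand beside 50.9% and 55.7% of all tested genes called.

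For the 6 members whose group means spanned at least 2-fold, the genes with the most similar profiles were sought. The measure was the smallest root-mean-square distance between centred log2(CPM + 0.5) values over the 8 libraries. The search covered 14172 tested genes with a symbol and a mean of at least 1 CPM, with the members themselves left out. FOXP2 and FOXP4, at 0.063 from each other, were closer to one another than TGFBR3 was to either. STRA6 was closer to FOXP4 than FOXP2 was, and PSD and PRDM11 were closer to FOXP2 than FOXP4 was. For FOXP4 the nearest were STRA6, the receptor for retinol-binding protein, at 0.053, TGFBR3, a TGF-beta co-receptor, at 0.068, and the antisense gene CCDC18-AS1, counted without strand, at 0.084. For FOXP2 they were PSD at 0.059, PRDM11 at 0.062 and again TGFBR3 at 0.066. For FOXD1 they were the receptor tyrosine kinase RET at 0.080, PDE5A at 0.11 and SNX3 at 0.11, and for FOXP1 MTSS1 at 0.096, the metalloproteinase MMP28 at 0.10 and GMPR at 0.10. For FOXF2 they were JADE1 at 0.066, GRK5 at 0.092 and RGS9 at 0.10. FOXC2 had looser neighbours, KLHL3 at 0.17, TNFSF12 at 0.17 and PRR29 at 0.21. STRA6 fell by 0.85 ± 0.03 and 1.21 ± 0.03 on the log2 scale under FGF8+10 in Pdgfra-positive and Pdgfra-low cells, and RET rose by 2.49 ± 0.23 and 2.92 ± 0.23. The profiles share libraries and depth, and the distances carry no test.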

How the data were processed

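The authors deposited 1 table of read counts per gene for the 8 libraries. Per the submitters' processing notes and the file header, reads were checked with FastQC 0.11.8, aligned with HISAT2 2.1.0 to GRCh38 and counted with featureCounts 2.0.3 on GENCODE 42 genes. Per the file header, both mates were counted, without strand. Reads on more than 1 gene or place were not counted. The members and gene lists were chosen with earlier results of these data known. Genes passing filterByExpr (22554) were scaled by TMM and fitted over all 4 groups in edgeR 4.0.16 (quasi-likelihood, robust, R 4.3.3), with 5 comparisons and Benjamini-Hochberg adjustment over all tested genes. The common biological coefficient of variation was 4.06%. DESeq2 1.42.0, other scalings, no filter, a replicate block and leaving out libraries were alternatives. The fit was tested on simulated data. Intervals of fold changes come from the edgeR fit and include the spread between libraries. Intervals of gene ratios and the limits at low counts cover counting error only. Genes named beside the members were up to 4 of each list, and the 3 nearest profiles. From each list, that of the other forkhead genes included, those with the largest called change under FGF8+10 at 1 CPM or more in a group were taken. The lncRNA and marker lists were summarised as counts and sums. One gene that this rule names is not reported here.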

Additional observations from a re-analysis of the deposited data

Results flagged for a closer look

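For 3 of the 8 forkhead genes the FGF8+10 effect differed between the sorted populations by the interaction term in edgeR. The effect in Pdgfra-positive minus that in Pdgfra-low cells was -0.36 ± 0.06 (SE) on the log2 scale for FOXF1 (adjusted p = 1.41e-06), 0.72 ± 0.17 for FOXF2 (adjusted p = 0.00119) and 0.41 ± 0.05 for FOXP4 (adjusted p = 4.41e-10). The calls held under every alternative run, and 26% of all tested genes were called in this comparison. FOXF1 and FOXF2 differed in opposite directions.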

How the results depend on the processing

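Of the values of the 8 genes under the alternatives, 568 kept their direction and side of the threshold, 15 changed sign, 3 became called and 5 lost a call. No value that changed sign was called, and the cause was not tested. Between populations under FGF8+10, FOXD1 was at -0.0092 with RLE factors, -0.0037 with library totals and -0.0092 in DESeq2, and leaving out a library gave -0.016 to 0.029. The leave-one-out ranges that crossed 0 were -0.10 to 0.010 for FOXF1 there. They were -0.11 to 0.15 for FOXC1 in FGF8+10 against Mock in Pdgfra-low cells. Under Mock they were -0.076 to 0.18 for FOXC1, -0.022 to 2.54 for FOXC2, -0.012 to 0.28 for FOXD1 and -0.092 to 0.23 for FOXP1. In the interaction they were -1.92 to 0.64 for FOXC2 and -0.27 to 0.019 for FOXD1. FENDRR in Pdgfra-positive cells went from -0.16 to 0.013 with library totals. FOXF2 between populations under FGF8+10 became called with those 4 libraries alone (adjusted p = 0.0481). The count of members higher in Pdgfra-positive cells under Mock ran from 3 to 5 when libraries were left out. Library totals alone moved the calls from 5811 higher and 5658 lower to 8164 and 3991 in Pdgfra-positive cells, and from 6300 and 6256 to 8113 and 4672 in Pdgfra-low cells. Replicate numbers did not pair the libraries (correlations of deviations -0.012 to 0.030), and with the replicate block 5 members were higher and 2 lower in both FGF8+10 comparisons. The interaction was not run with 4 libraries alone. FOXC2, at 3 to 81 counts, is limited by depth.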
